A study of Mus musculus with 10 samples.

Results

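The hair keratins and their partner proteins were followed across 10 arrays of mouse keratinocytes with and without RhoA, a small GTPase that controls the actin cytoskeleton. All probe sets were taken whose platform annotation gave exactly 1 symbol for a hair follicle keratin, a keratin-associated protein (Krtap) or trichohyalin (Tchh), which gave 64 probe sets of 59 genes, of 45037 probe sets and 18193 singly named genes in all. They comprised 8 probe sets of the inner root sheath (Krt25, Krt26, Krt27, Krt28, Krt71, Krt72, Krt73 and Tchh), 1 of the companion layer (Krt75), 12 of cortex and cuticle keratins and 43 of keratin-associated proteins. A pair of probe sets read each of 5 genes, all of them Krtap genes, and 1 probe set read each of the others.

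The RhoA-null cells (KO) had the genotype RhoA fl/fl K5 cre. Control cells, which the titles name wildtype, were RhoA fl/+ K5 cre and therefore carried the same Cre and 1 floxed allele. The Cre is driven by the keratin 5 promoter, active in basal keratinocytes and the outer root sheath, so cells that never expressed it would keep RhoA. Cells were either taken directly from epidermis, with 2 control and 2 KO arrays, or grown as primary cultures, with 3 control and 3 KO arrays. No source used here gives the age of the mice, the hair cycle stage or any pooling of animals. Samples are titled biological replicates, but no animal is named, so p-values measure only the spread between these samples.

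Hair is built in the lower follicle during the growth phase. Matrix cells divide there and move up into concentric layers: the inner root sheath, which moulds the growing fibre and is later lost, and the hair shaft with its cortex and cuticle. Type I and type II keratins pair into filaments. In the sheath trichohyalin binds these filaments together, and in the shaft the keratin-associated proteins fill the space between them. These proteins are grouped as rich in sulfur or as high in glycine and tyrosine.

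The start regions of some genes are shown first. Those printed were chosen by hand, and all of them hold TATAAA, which not every member promoter does. RefSeq (build GRCm38.p6) gave a promoter for 52 of the 59 genes. The 100 bases upstream of the annotated start are printed on the gene's strand, with TATAAA, the TATA box letters, in capitals. The first 5 belong to the inner root sheath.
Krt25, chr11:99322952-99323051, minus strand: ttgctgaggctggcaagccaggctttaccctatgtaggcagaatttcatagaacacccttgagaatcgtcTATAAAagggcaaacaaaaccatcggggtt
Krt27, chr11:99351119-99351218, minus strand: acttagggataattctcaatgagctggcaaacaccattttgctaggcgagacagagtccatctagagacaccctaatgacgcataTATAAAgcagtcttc
Krt28, chr11:99374904-99375003, minus strand: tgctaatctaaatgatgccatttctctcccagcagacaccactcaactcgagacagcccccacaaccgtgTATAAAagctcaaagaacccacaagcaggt
Krt71, chr15:101743098-101743197, minus strand: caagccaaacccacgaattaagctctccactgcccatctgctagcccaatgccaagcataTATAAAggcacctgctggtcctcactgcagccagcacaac
Krt73, chr15:101802361-101802460, minus strand: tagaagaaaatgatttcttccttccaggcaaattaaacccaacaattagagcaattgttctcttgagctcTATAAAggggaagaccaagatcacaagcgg

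The next 5 are a pair of cortex keratins and the 3 Krtap genes given in most detail.
Krt33b, chr11:100029869-100029968, minus strand: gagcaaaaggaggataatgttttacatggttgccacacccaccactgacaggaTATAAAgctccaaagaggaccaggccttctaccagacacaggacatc
Krt31, chr11:100050552-100050651, minus strand: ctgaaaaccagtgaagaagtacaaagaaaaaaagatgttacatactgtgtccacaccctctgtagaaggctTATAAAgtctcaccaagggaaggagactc
Krtap8-1, chr16:89487953-89488052, minus strand: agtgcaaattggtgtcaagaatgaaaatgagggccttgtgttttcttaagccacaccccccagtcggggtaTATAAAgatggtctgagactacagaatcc
Krtap11-1, chr16:89571184-89571283, minus strand: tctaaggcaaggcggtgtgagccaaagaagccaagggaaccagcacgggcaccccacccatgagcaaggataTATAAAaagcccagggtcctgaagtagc
Krtap16-3, chr16:88962874-88962973, minus strand: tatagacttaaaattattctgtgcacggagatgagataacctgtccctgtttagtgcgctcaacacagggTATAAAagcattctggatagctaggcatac

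The last 2 belong to members that did not share the pattern described below.
Krt32, chr11:100088270-100088369, minus strand: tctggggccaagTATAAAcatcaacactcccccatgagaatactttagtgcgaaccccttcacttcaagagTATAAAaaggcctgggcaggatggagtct
Krtap5-1, chr7:142297135-142297234, minus strand: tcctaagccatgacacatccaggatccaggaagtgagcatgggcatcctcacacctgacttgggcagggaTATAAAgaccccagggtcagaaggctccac

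TATAAA stood on the gene's strand within these 100 bases in 38 of 52 member promoters (73.1%) and in 3.8% of all 32851 promoters in the table. Searched on both strands the shares were 73.1% and 5.56%. In 29 of the 52 it began 20 to 40 bases upstream of the start. By class it was in 6 of 8 inner root sheath, 4 of 7 cortex and cuticle and 28 of 36 Krtap promoters. Members with and without the pattern described below both held it, in 22 of 32 (68.8%) and 16 of 20 genes (80%), so it was no more frequent in those that shared the pattern. CTTTGA, the core letters bound by LEF1 and the other TCF factors, stood on either strand in 2 of 52 member promoters (3.85%) and in 4.97% of all. CTTTGA and TATAAA do not overlap. These counts describe letters in a window and not sites in use.

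Signal is the deposited linear intensity in arbitrary units. The 4 fresh arrays had medians of 64.09 to 64.8 over all probe sets and the 6 cultured arrays 7.75 to 8, so levels were compared only within each condition. Of the 10 markers of epidermal keratinocytes looked up, all were measured. Their summed signal was 165176 to 176802 on the fresh arrays and 211377 to 250010 in culture, where Krt5 and Krt14 were high and Krt1, a suprabasal keratin, lay between 4.3 and 26.7. The more abundant of the 3 Rhoa probe sets by mean log2 signal read 3526 and 4059 in fresh control against 4398 and 4296 in fresh KO, and 9240 to 11249 against 7628 to 8209 in culture (limma adjusted p = 0.434 and 0.156). Whether these probes lie in the deleted part is not known here, so they do not check the labels. Fresh KO replicate 2 stood apart from the other 3 fresh arrays for hair transcripts, and the members' log2 differences and class medians in fresh cells are given with and without it.

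In freshly isolated cells the summed signal of the members was far higher on KO replicate 2 than on any other fresh array. The sum was 5215 and 3924 on control replicates 1 and 2, 2884 on KO replicate 1 and 83741 on KO replicate 2. This is 0.0232%, 0.0176%, 0.0129% and 0.375% of all signal on those arrays. KO replicate 2 was the highest fresh array for 56 of 64 members, where it was the highest for 29.9% of all probe sets. It lay at least 2-fold over each other fresh array for 39 members (0.464% of all probe sets) and at least 10-fold for 27 (0.0933%). Only 42 probe sets on the array passed the 10-fold step, so 27 of those 42 were hair keratins or keratin-associated proteins.

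**Figure D1:**
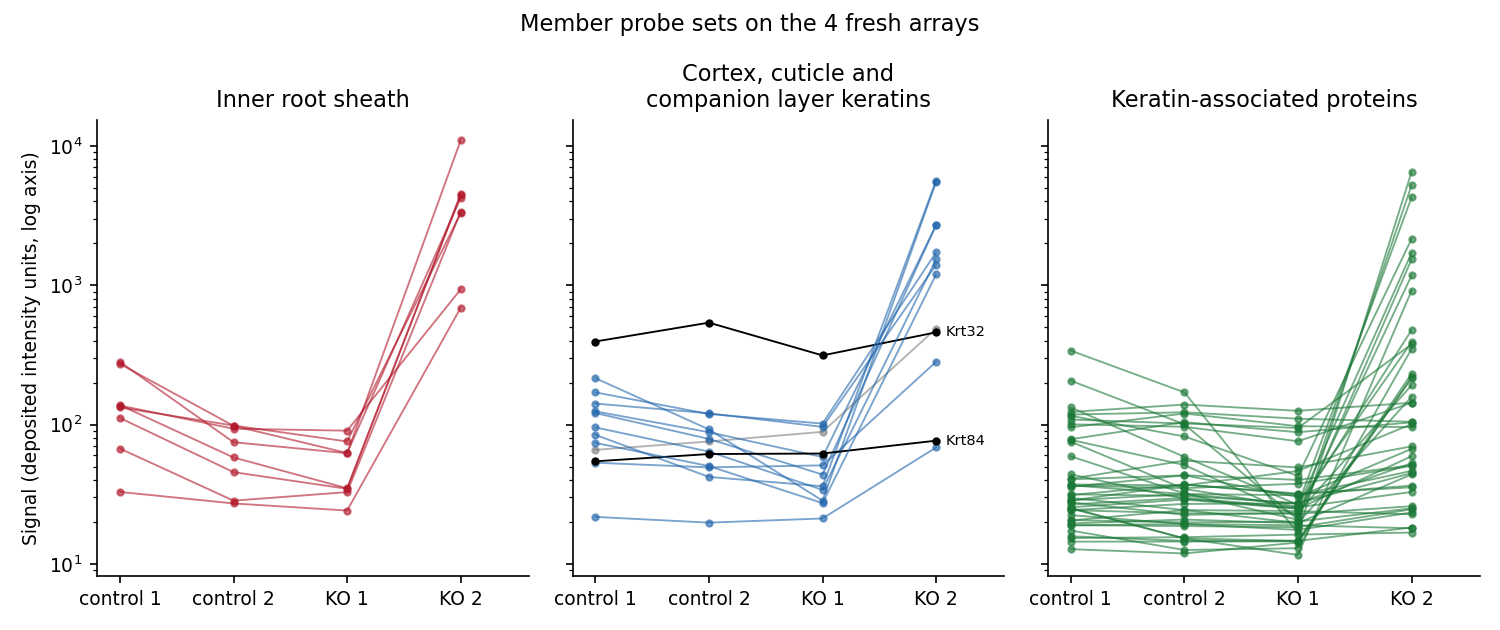
Signal of each member probe set (log axis, deposited intensity units) on the 4 fresh arrays, with 1 line joining the values of 1 probe set. All 8 inner root sheath probe sets lie between 688 and 10946 on KO replicate 2 and at or below 282 on the other 3 arrays, while Krt32 and Krt84, in black, stay level.

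The inner root sheath keratins carried the clearest pattern. Krt25, a type I keratin of all sheath layers, read 282 and 74.7 in the controls, 62.3 on KO replicate 1 and 10946 on KO replicate 2. Its type I neighbours Krt27 and Krt28 read 138, 58.1, 34.9 and 4443, and 67.2, 28.4, 32.7 and 3367, on the same arrays in that order. Krt26, of the sheath cuticle, was dimmer, with 32.8, 27.2, 24.2 and 688. For each of these 4 genes control and KO overlapped, because KO replicate 1 fell within or below the controls.

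The type II partners did likewise. Krt71 read 133 and 98.4 in control, 75.6 on KO replicate 1 and 3290 on KO replicate 2. Krt73, of the sheath cuticle, read 112, 45.5, 34.6 and 4517, and Krt72, found in the same layer, 137, 93.3, 90.4 and 933. Tchh, the filament-binding protein of the sheath and medulla, read 272, 98.0, 62.5 and 4225. KO replicate 2 exceeded the highest other array by 6.82-fold (Krt72) to 50.1-fold (Krt28), with a median of 28.5-fold over the 8 probe sets.

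Krt75, the type II keratin of the companion layer between the inner and outer root sheaths, differed from these in 1 respect. It read 65.8 and 75.6 in control, 88.7 on KO replicate 1 and 488 on KO replicate 2, so that both KO arrays lay above both controls. Of all probe sets 40.5% were without overlap in fresh cells. Its log2 difference of 1.56 (SE 0.77) had the smallest limma adjusted p of any member in fresh cells, 0.456. Without KO replicate 2 the difference was 0.33 (adjusted p = 0.612).

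Among the cortex and cuticle keratins, Krt35, the type I keratin that appears first as matrix cells enter the shaft, read 84.4 and 42.1 in control, 36.1 on KO replicate 1 and 5636 on KO replicate 2. Its ratio of 66.8 to the highest other array was the largest of all 45037 probe sets. The type I cortex keratins Krt33a, Krt33b, Krt31 and Krt34 reached 5527, 2697, 2709 and 1533 on KO replicate 2. Their control values were 215 and 92.2 for Krt33a, 124 and 88.1 for Krt33b, 121 and 78.8 for Krt31, and 95.4 and 64 for Krt34. On KO replicate 1 they read 28.4, 58.5, 43.7 and 34, below both controls in each case.

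The type II cortex keratins were also highest on KO replicate 2. Krt86 read 73.9 and 50.3 in control, 27.3 on KO replicate 1 and 1195 on KO replicate 2. Krt81 read 170, 119, 102 and 1723, and Krt83 141, 120, 96.2 and 1401, on the same arrays. Ratios to the highest other array were 16.2, 10.1 and 9.91. Krt36 (53.2, 49.3, 50.9 and 282) and Krt82, a cuticle keratin (21.8, 19.8, 21.2 and 68.5), had ratios of 5.30 and 3.15 and hardly differed among the other 3 arrays.

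A pair of keratins stood outside this pattern. Krt32, a type I keratin of the hair cuticle, read 394 and 538 in control, 313 on KO replicate 1 and 459 on KO replicate 2, so that a control array was the highest. Its log2 difference was -0.28 (SE 0.24, limma adjusted p = 0.659), and -0.56 without KO replicate 2 (adjusted p = 0.415). Krt84, a type II keratin also known from the tongue papillae, was nearly level, at 54.5 and 61.4 in control, 62 on KO replicate 1 and 76.6 on KO replicate 2. It was without overlap between the groups, as were 10 of the 64 members (15.6%, against 40.5% of all probe sets). In RefSeq order Krt32 lies between Krt31 and Krt35, whose ratios on KO replicate 2 were 22.4 and 66.8 against 0.853 for Krt32, and Krt84 (1.24) lies between Krt83 (9.91) and Krt82 (3.15). Krt25 to Krt28 are direct neighbours as well, with ratios from 21 to 50.1.

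**Figure D2:**
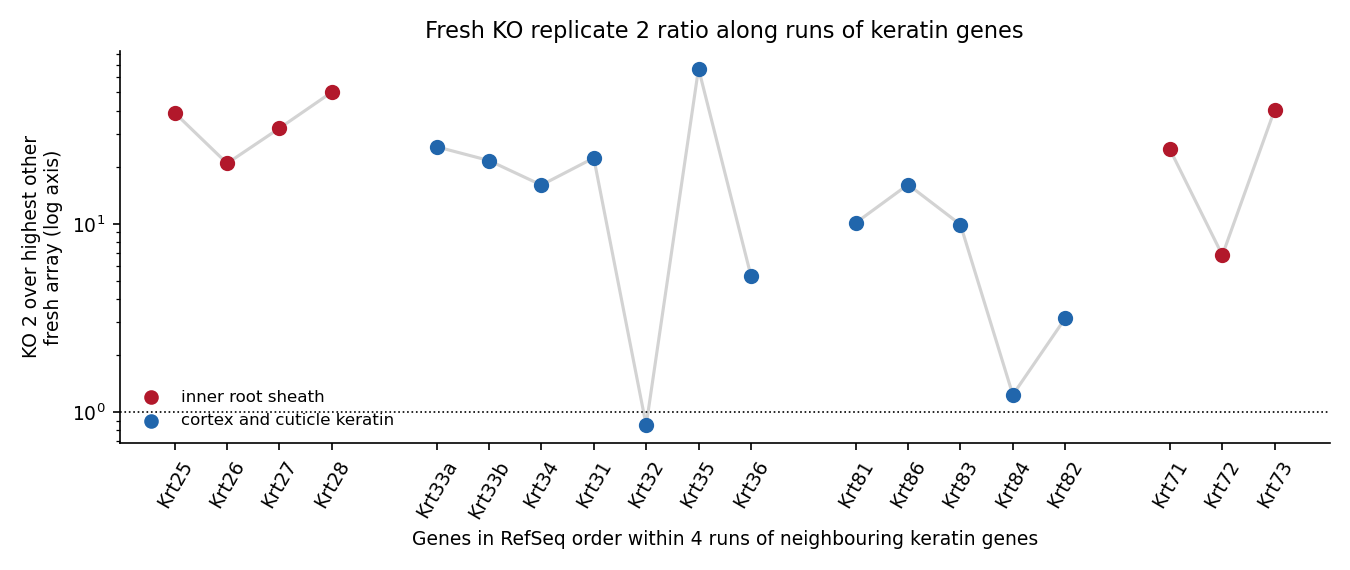
Ratio of fresh KO replicate 2 to the highest of the other 3 fresh arrays (log axis) for keratin genes placed in RefSeq order within 4 runs of neighbouring genes, coloured by class; the dotted line marks a ratio of 1. Krt32 (0.853) and Krt84 (1.24) lie low between neighbours at 3.15 to 66.8.

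The keratin-associated proteins ranged from probe sets that were far higher on KO replicate 2 to probe sets that were level. Krtap8-1, of the high glycine-tyrosine group, read 339 and 170 in control, 16.7 on KO replicate 1 and 6507 on KO replicate 2. Krtap7-1, of the same group, read 75.4, 34.5, 25.7 and 1706. The probe sets of Krtap16-3 read 25.3, 15.2, 11.6 and 914, and 17.4, 12.6, 13.0 and 349. Of the sulfur-rich families, Krtap11-1 read 206, 100, 20.7 and 5216, Krtap15 133, 58.6, 26.6 and 4269, and Krtap13-1 116, 82.2, 42.8 and 2153. Krtap14 read 59.1, 32, 20.7 and 1532. All 7 of these genes were highest on KO replicate 2 by 18.6-fold or more over the next array.

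The ratios followed gene families only in part. Of the 17 probe sets in high glycine-tyrosine families (Krtap6, 7, 8, 16, 19, 21 and 22, grouped by name since protein sequences were not used here), all 17 were highest on KO replicate 2 and 11 by at least 2-fold. Of the 26 sulfur-rich probe sets, 19 were highest there and 9 by at least 2-fold. Median ratios were 6.92 and 1.45. Besides the genes above, Krtap22-2 (77.7, 51.2, 22 and 1174), Krtap1-5 (10.9-fold) and Krtap9-3 (8.62-fold) were among the higher ones. Within the Krtap19 family Krtap19-3 reached 16 (232 against 14.5 on each of the others), Krtap19-2 15.4 (219 against 11.9 to 14.2) and Krtap19-9b 10.6, while the Krtap19-1 probe sets were at 1.27 and 1.21. Many Krtap genes are near copies of each other, so a probe set may read a neighbour of the gene it is named for, above all the shared-sequence designs (suffix _s_at, _x_at or _a_at) that read Krtap11-1, Krt82, Krt36 and 1 probe set each of Krtap16-3, Krtap12-1 and Krtap5-1.

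Krtap5 and Krtap4 probe sets, of ultra-high-sulfur families, had low ratios. The 6 Krtap5 probe sets ranged from 0.800 to 1.16 in ratio and the 5 Krtap4 probe sets from 1.30 to 2.11. Most of them were dim on the fresh arrays, such as Krtap5-2 at 14.6 to 18.3 and Krtap4-2 at 18.3 to 24.65. A change in their transcripts could go unseen at that level. Both Krtap12-1 probe sets were level too, at 123, 139, 125 and 143, and 28.5, 37.1, 31.6 and 36.5. Krtap3-1, a high-sulfur protein, read 109, 102, 94.6 and 377. The 8 probe sets for which KO replicate 2 was not the highest were those of Krt32, Krtap10-4, Krtap28-13, Krtap5-3 and Krtap5-5, both of Krtap5-1 and 1 of Krtap12-1.

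**Figure D3:**
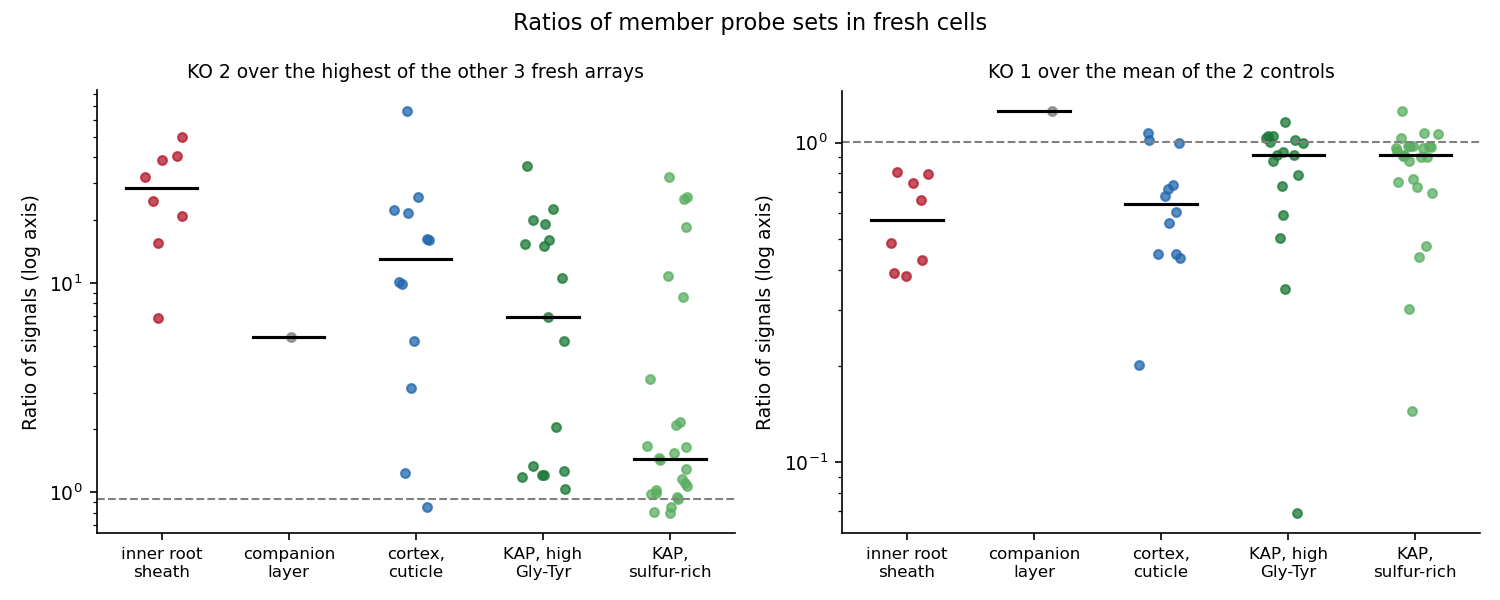
Ratios of signals (log axis) for each member probe set by class, with KAP for keratin-associated protein; bars are class medians and the dashed line is the median over all probe sets. On the left KO replicate 2 exceeds the highest other fresh array by a median of 28.5-fold in the inner root sheath and 13.1-fold in cortex and cuticle, and on the right KO replicate 1 lies at 0.574 and 0.643 of the control mean.

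By group the fresh comparison called no member. Of the 64 members, 29 were above their array's median on at least 2 of the 4 fresh arrays and were tested, and limma called 0 of them at an adjusted p of 0.05, where it called 0% of the 22893 probe sets tested. At an unadjusted p under 0.05 there were 0 members against 12.9% of all probe sets, and adjusted p over members ran from 0.456 to 0.956. Log2 differences were 2.51 for Krt25 (SE 2.36), 2.93 for Krt28 (SE 2.08), 2.13 for Krt71 (SE 1.67), 1.65 for Tchh (SE 1.92), 2.92 for Krt35 (SE 2.25), 1.49 for Krt33a (SE 2.36) and 0.45 for Krtap8-1 (SE 2.65). With n = 2 per group, the KO arrays lay further apart than the groups did for each of these 7 genes. Over all members without a filter, the median log2 difference was 2.13 for the inner root sheath, 1.52 for cortex and cuticle keratins and 0.34 for Krtap probe sets, against 0.01 over all probe sets.

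These differences rested on KO replicate 2. With that array as the only KO array, limma called 23 of 29 tested members, all higher, where it called 4.2% of all probe sets. They were 7 of 7 inner root sheath, 8 of 9 cortex and cuticle and 7 of 12 Krtap probe sets and Krt75. The log2 differences were then 6.24 for Krt25, 6.27 for Krt28, 4.85 for Krt71, 6.56 for Krt35, 5.29 for Krt33a and 4.76 for Krtap8-1. The array was set apart because hair transcripts stood out on it, so these calls followed from that choice and are not a test. Some members, such as Krt28 and Krt35, passed the filter only because KO replicate 2 counted towards it. The lone KO array is also assumed here to vary as the controls do, so these values describe that array and not the genotype. The same holds for the later counts that use KO replicate 2 as the only fresh KO array.

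With KO replicate 1 as the only KO array the sign turned. The median log2 difference was -0.82 for inner root sheath, -0.64 for cortex and cuticle and -0.13 for Krtap probe sets, and 51 of 64 members were lower than the control mean. Of the 20 members that could be tested limma called 0, where it called 0.0489% of all probe sets, and 9 had an unadjusted p under 0.05, against 10.9% of all. The smallest adjusted p was that of Krtap8-1, 16.7 against 339 and 170 (log2 difference -3.85, SE 0.39, adjusted p = 0.0615). Its ratio to the control mean, 0.0694, was the lowest of all probe sets. Krtap11-1 (-2.80) and Krt33a (-2.31) came next among members. Krt25, Krt71 and Tchh were at -1.22, -0.59 and -1.39. A member below the median of KO replicate 1 (64.09) entered this fit only if both controls exceeded their medians. Among the 9, this held for Krtap8-1, Krtap11-1, Krt33a, Krt31, Krt33b, Krtap13-1 and Tchh, at 16.7 to 62.5 on KO replicate 1. The filter thus favoured members with high controls, and the lone KO array is again assumed to vary as the controls do. The counts among the 20 are therefore not a test of a decrease.

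Without KO replicate 2 the other fresh arrays were still graded. Control replicate 1 exceeded control replicate 2 for 43 of 64 members, 8 of 8 in the inner root sheath, where the share over all probe sets was 49.2%. KO replicate 1 lay below both controls for 39 members (34% of all probe sets), with 7 of 8 in the inner root sheath, 9 of 12 in cortex and cuticle and 23 of 43 among Krtap probe sets. The order KO replicate 2, control 1, control 2, KO replicate 1 held for 32 of 64 members and for 3.99% of all probe sets. The log2 differences of KO replicate 2 from control replicate 2 and of control replicate 1 from KO replicate 1 share no array. Their Pearson correlation across the 64 members was 0.757 (Spearman 0.787), and -0.193 across all probe sets. This pairing follows the order above, seen in the same values, and no other pairing was run, so the correlation adds no support to that order. It is a description across probe sets of the same 4 arrays, many of them read from related genes. A lower share of follicle cells and less of each transcript per cell cannot be told apart in such bulk samples.

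Other genes of hair formation were examined from fixed lists, each by its probe set with the highest mean log2 signal over the 10 arrays. Among 18 measured shaft and sheath proteins that are not keratins, 12 were at least 2-fold highest on KO replicate 2. S100a3, a calcium-binding protein of the hair cuticle, read 92.9 and 60 in control, 26.6 on KO replicate 1 and 1986 on KO replicate 2. Padi3, which converts arginine to citrulline in trichohyalin and S100A3, read 41.7, 24.2, 24.2 and 1386. Crym read 50.3, 33.4, 31.1 and 1254 and Gprc5d 75.9, 78.2, 44.9 and 704. Tgm3, a transglutaminase of the sheath and the epidermis, had another pattern, with 173 and 153 in control against 516 and 489 in KO and no overlap (limma adjusted p = 0.153). Calml3, a calmodulin-like protein of epithelia, read 2979 and 2834 in control against 4455 and 4036 in KO (limma adjusted p = 0.244).

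Of 25 hair matrix and follicle regulators, 17 were highest on KO replicate 2 and 5 by at least 2-fold. Shh, the signal made by matrix cells, read 34.7 and 36.4 in control, 39.5 on KO replicate 1 and 402 on KO replicate 2. Lef1, the nuclear partner of beta-catenin in the matrix, read 53.7, 57.3, 58.3 and 341. Hoxc13, a regulator of hair keratin genes, read 91.1, 88.9, 97.0 and 496, Msx2 107, 109, 96.6 and 571, and Dlx3 147, 186, 133 and 624. Shh, Lef1, Hoxc13 and Msx2 lay close together on the other 3 arrays, while Dlx3 ran from 133 to 186. Shh and Lef1 were below the array medians there, where a grading could go unseen. Foxn1 was less far apart, with 249, 226, 231 and 362, and Gata3, needed for the inner root sheath but also present in epidermis, was lowest there at 4122 against 4390 to 5269. In fresh cells limma called 0 members of either list, with 21 and 11 tested, where it called 0% of all 22893 probe sets tested.

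Markers of the stem cell and outer root sheath compartment did not share the pattern. Krt15, the leading transcript of that list, read 20050 and 20241 on the control arrays against 17211 and 17436 on the KO arrays, and Lgr5, Cd34 and Lhx2 were likewise not highest on KO replicate 2. Only 3 of the 10 markers of that list (Tbx1, Krt17 and Krt6a) were highest there, and none by 2-fold. The list summed to 34747 and 35096 on the control arrays against 31137 and 31931 on the KO arrays.

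**Figure D4:**
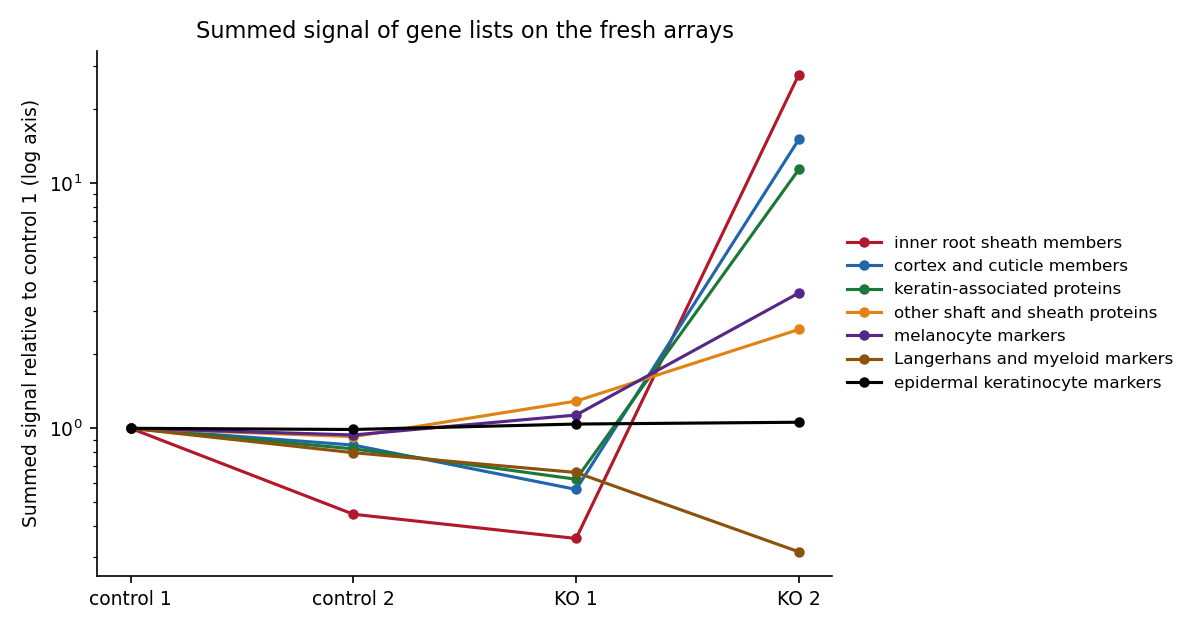
Summed signal of gene lists on each fresh array relative to control replicate 1 (log axis), with 1 line joining the values of 1 list. Member sums were 83741 on KO replicate 2 against 2884 to 5215 on the others, melanocyte markers 5214 against 1376 to 1659, and epidermal keratinocyte markers 176802 against 165176 to 173825.

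Markers of other cells also moved with KO replicate 2. Of 10 melanocyte markers 9 were highest there and 7 at least 2-fold. The list sum was 1465 and 1376 in control, 1659 on KO replicate 1 and 5214 on KO replicate 2. KO replicate 1 differed too: 7 of the 10 had no overlap between KO and control, against 40.5% of all probe sets. Of these Mitf was lower in KO (669 and 699 against 550 and 474) and the others were higher. Tyrp1 read 62.6, 38.3, 95.9 and 719, and Dct 285, 205, 468 and 1846. Of 10 Langerhans cell and myeloid markers none was highest there, and 8 were lower on both KO arrays than on both controls. Their sum was 23924 and 19030 in control, 15803 on KO replicate 1 and 7507 on KO replicate 2 over all 10. Of 10 fibroblast and dermal papilla markers 5 were highest there and 1, Dcn, at least 2-fold (102, 62.7, 137 and 1012). Col1a1 read 34.3 to 39.3 and Sox2 10.7 to 12.3 on all 4 arrays. KO and control did not overlap for 7 of these 10 markers, against 40.5% of all probe sets. Of the 7, Rspo3 was lower in KO (402 and 450.5 against 178 and 166). The others were higher, such as Col3a1 (22.9 and 21.4 in control against 82.55 and 93.9). Fabp4, from the list for muscle, fat and blood, read 43.2, 15.5, 37.3 and 1667, with Adipoq at 17.5 to 19. Sebaceous, T cell and endothelial sums were 9657 to 11701, 2395 to 4050 and 173 to 181, with KO replicate 2 inside each range. Scd1 made up most of the sebaceous sum. Of the 6 sebaceous markers measured, 3 had no overlap, against the same 40.5%. Scd1 and Scd3 were lower in KO (Scd3 289 and 231 against 75.6 and 58.5) and Elovl3 was higher. The part of these cells in the member values was not tested.

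In culture nearly all members lay at the floor of the arrays. Of 64 probe sets, 61 read below 10 on all 6 cultured arrays, between 3.3 and 8.8, where 52.1% of all probe sets did so. Within these 61 the highest array exceeded the lowest by at most 1.37-fold. Control replicate 2 was the highest cultured array for 53 of the 61, and also for 78.4% of all probe sets below 10, so the order of arrays at this level was shared by unrelated probe sets. The inner root sheath keratins Krt25, Krt27, Krt71 and Krt73 read 7.78 to 8.12, 5.5 to 5.71, 4.88 to 4.97 and 3.88 to 3.93. The most abundant Krtap probe sets after Krtap3-1 were at the same level: Krtap21-1 at 6.73 to 6.98, Krtap10-4 at 6.17 to 6.59, Krtap4-2 at 6.05 to 6.35, the Krtap19-1 pair at 5.25 to 6.46 and Krtap4-6 at 5.42 to 7.44.

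The exceptions were Tchh, Krt32 and Krtap3-1. Tchh read 238, 322 and 279 in control replicates 1 to 3 and 452, 403 and 335 in KO replicates 1 to 3, so every KO array lay above every control. Of all probe sets 5.22% did so, and 1 other member did, a Krtap5-1 probe set at the floor. The difference was 1.42-fold (log2 0.51, SE 0.17, n = 3 per group) and did not pass (limma adjusted p = 0.250, unadjusted p = 0.0241). Within its array Tchh stood at percentile 72.1 to 75 in cultured control and 75.2 to 78.0 in cultured KO. In fresh cells it stood at 72.7 and 58.3 in control and at 49.4 and 98.0 in KO. Tchh was thus the only inner root sheath gene clearly above the floor in culture.

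Krt32 read 36.7, 52.2 and 23.9 in cultured control and 23.5, 23.6 and 23.7 in KO, so every KO array lay below every control (6.37% of all probe sets), though control replicate 3 by little. The log2 difference was -0.60 (SE 0.28, adjusted p = 0.359). Krtap3-1 read 9.42, 10.7 and 10.7 on the control arrays against 13.6, 10.7 and 10.7 on the KO arrays (log2 difference 0.18, SE 0.11, adjusted p = 0.493). KO replicate 1 lay above and control replicate 1 below the other arrays. Krt25 and Krt28 passed the filter on dim probe sets in culture only because they lie just above the median of the array.

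**Figure D5:**
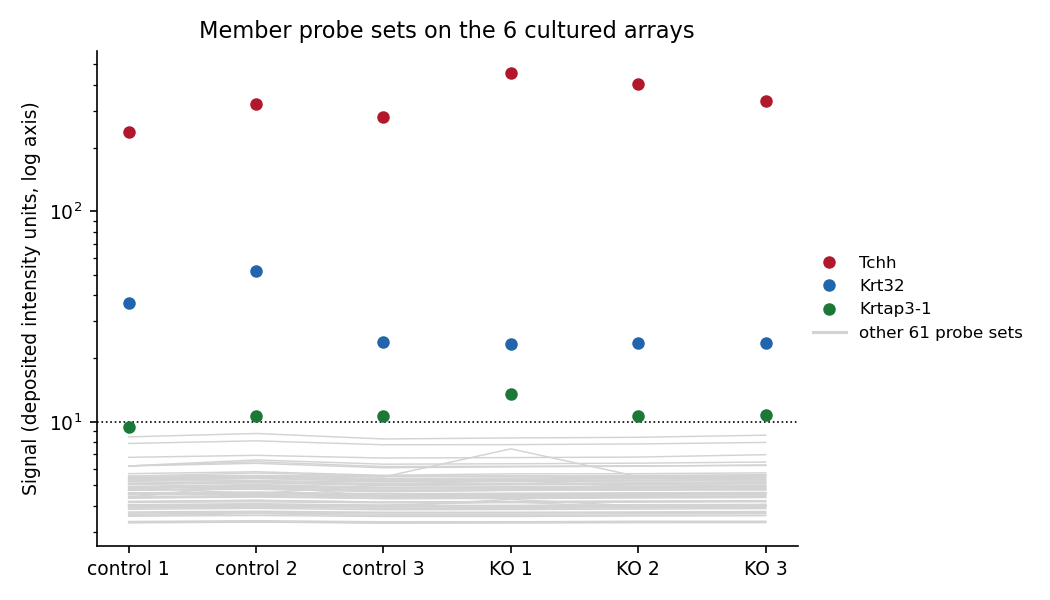
Signal of member probe sets (log axis, deposited intensity units) on the 6 cultured arrays, with Tchh, Krt32 and Krtap3-1 as points, the other 61 probe sets as grey lines and 10 units as a dotted line. Tchh lies at 238 to 322 in control and 335 to 452 in KO, and the grey lines stay below 10.

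Of the 5 members tested in culture limma called 0, where it called 0.273% of 22682 probe sets (0.181% higher and 0.0926% lower), and 1 member (Tchh) had an unadjusted p under 0.05, against 15.6% of all. Of the regulators 8 of 25, and of the shaft and sheath proteins 12 of 18, read below 10 on every cultured array, against the 52.1% of all probe sets given above. Of the regulators 1 was called, Wnt5a, a ligand of the dermal papilla and epidermis, at 31.3, 38.3 and 30.9 in control and 77.7, 71 and 70.8 in KO (limma adjusted p = 0.0444).

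Whether the KO effect differed between cultured and fresh cells could be tested for 5 members. By limma 0 passed, where 1.95% of 18773 probe sets passed, 0.799% with a higher effect in culture and 1.16% with a lower one. At an unadjusted p under 0.05 there were 0 members against 18.9% of all. For Tchh the KO effect in culture minus that in fresh cells was -1.15 on the log2 scale (adjusted p = 0.785), and for Krt32 -0.32 (adjusted p = 0.673). With KO replicate 2 as the only fresh KO array 4 of the 5 passed, where 8.68% of all probe sets did.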

How the data were processed

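Total RNA from each sample was amplified and hybridised to 1 mouse genome array, per the labels' protocols. The deposited table gives the authors' linear intensity of every probe set on each array. MAS5 is named in the submitters' processing notes, without settings. Fresh and cultured arrays differ in scale and floor, so they were fitted apart. Levels were set against each other only by rank, and KO effects as log2 differences.

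Log2 of the intensity was analysed as it stood. A probe set entered a condition's test if it exceeded the median of the array on 2 or more of its arrays. Tests used limma 3.58.1 in R 4.3.3 (lmFit, eBayes with trend, 2-sided), with Benjamini-Hochberg adjustment over all of them at 0.05. The script was tested on simulated data. The difference between conditions combined both fits' standard errors. Of 45037 probe sets 34945 had 1 symbol, 932 several and 9160 none here; all 64 members matched RefSeq by Entrez identifier. The number of arrays limits the precision.

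Every keratin member is given with its value on each fresh array, and in culture where it was above the floor. Of the Krtap genes, those called and, in each condition, the 6 with the highest mean and the 6 with the largest range are named. Others, such as single Krtap19, related and marker genes, were picked from fixed lists after their values were seen. The members and lists were chosen with earlier results of these data known. Krtap groups by amino acid content were replaced by family names. Alternatives were no filter, a stricter filter, 75th percentile centring, an offset of 16, no trend, array weights, a replicate block, 1 fit over all 10 arrays, medians over genes and leaving out each array.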

Additional observations from a re-analysis of the deposited data

Results flagged for a closer look

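Probe sets annotated with several symbols, 1 or more of them a hair keratin partner, were left out of the members, and 5 of 6 had a mean signal on the fresh KO arrays above the highest fresh control. The probe set for Krtap3-2 and Krtap3-3 had a KO mean of 307 (42.3 and 28.8 in control, 19.1 and 595 in KO), and a second for the same genes 16.1 (13.6 and 15.2 in control). The one shared by Krtap6-1 had 51.9 (27.4 and 23.7 in control, 21.7 and 82.1 in KO), the one shared by Krtap2-4 48.4 (27.1 and 30.6 in control, 26.8 and 70.1 in KO) and the one shared by Krtap9-1 105 (103 and 103 in control). The rule that picked these 5 requires a KO array to be the highest, and the share of all probe sets that meet it was not counted. In all 5 that array was KO replicate 2, by 1.115-fold to 14.08-fold over the next array.

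A probe set of Krtap5-1 was lower on both fresh KO arrays than on both controls, with a ratio of means of 0.894 (118 and 122 in control, 110 and 105 in KO), and higher on all 3 cultured KO arrays than on every cultured control, at 3.98 to 4.28 against 3.93 to 3.97, the floor of those arrays. This difference between conditions was not tested.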

How the results depend on the processing

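The count of members called stayed 0 in culture under every alternative run and in fresh cells under all but 1. Leaving out 1 array gave 0 to 23 called members in fresh cells, 0 to 4 for the difference between conditions and 0 in culture; the 23 and the 4 came without fresh KO replicate 1. The fresh median log2 differences ran from -0.82 to 5.24 (inner root sheath), -0.64 to 3.94 (cortex and cuticle) and -0.13 to 0.76 (Krtap) when 1 array was left out, lowest without KO replicate 2 and highest without KO replicate 1. Single members ran from -1.22 to 6.24 (Krt25), -0.59 to 4.85 (Krt71), -1.39 to 4.69 (Tchh), -2.31 to 5.29 (Krt33a) and -3.85 to 4.76 (Krtap8-1). Krt75 (0.33 to 2.79) was positive in each such fit. Krt28 (2.30 to 6.27) and Krt35 (2.42 to 6.56) were positive in each fit that could test them. They were below the filter without KO replicate 2 and without control replicate 1, so each of those fits held KO replicate 2. On KO replicate 1 they lay at -0.42 (Krt28) and -0.72 (Krt35) from the control mean in log2. In culture, 75th percentile centring moved the medians to 0.019 (inner root sheath), 0.020 (cortex and cuticle) and 0.019 (Krtap), and leaving out 1 array gave -0.0051 to 0.0090, -0.0045 to 0.0059 and -0.0061 to 0.0075. The fit with the replicate number as a block called 0 members in culture and 0 in fresh cells. Same-numbered arrays did not deviate together throughout (correlations of 0.322, 0.0809 and 0.249 in culture and -0.0548 in fresh cells), so the numbers were not taken as pairs. Over all probe sets the calls varied more. In culture the 62 became 2 with no filter, 128 with centring, 7 with no trend, 299 with array weights, 17 with the block, 547 with 1 fit over all 10 arrays and 0 to 95 without 1 array. In fresh cells 0 became 447 with 1 fit and 0 to 945 without 1 array. For the difference 367 became 700 with weights, 555 with the block and 28 to 1613 without 1 array; 1 fit over all arrays was not run for it. Dim probe sets, whose background is unknown here, limit any statement on members at the floor.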
